A study of Caenorhabditis elegans with 2 samples.

Results

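The uncoordinated genes of Caenorhabditis elegans are named unc and a number, after mutants that move poorly, and the 59 described here are those left after 35 unc genes were set aside by name, out of 19973 protein-coding genes of the WBcel235 assembly. The 35 genes set aside cover most of the sarcomere and muscle attachment genes, but also axon guidance genes such as unc-5, unc-6 and unc-40 and the gap junction genes unc-7 and unc-9. "Outside the muscle machinery" is therefore a working name, and the 59 genes still include unc-105, a channel gene known from body wall muscle. HLH-1 binding was mapped by chromatin immunoprecipitation and sequencing (ChIP-seq) of an eGFP fusion in whole mixed-stage embryos of both sexes. The strain was OP64, which carries unc-119(ed3) on chromosome III and the transgene wgIs64, and 2 biological replicates formed the only group. The labels name hlh-1 as the antibody's target and do not say which promoter drives the fusion. There is no second condition, so no difference between samples could be tested. In whole embryos, binding in few cells and weak binding in many cells cannot be told apart.

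HLH-1 is related to vertebrate MyoD and drives muscle genes. Such basic helix-loop-helix (bHLH) proteins recognise E-boxes (CANNTG) in DNA. Coordinated movement needs muscle and also motor neurons, their axons, the transport of material along those axons, ion channels and synapses, and most of the 59 genes are known for work in the nervous system. Some, such as the gene for beta-spectrin, are used in muscle as well.

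A gene was called bound when a peak summit lay between 2000 bp upstream and 500 bp downstream of its start, the most 5′ annotated base. Summits came from the 3254 peaks that the authors kept after thresholding by irreproducible discovery rate (IDR). Not all of these peaks were found in both replicates. Of the 3254, 2706 (83.2%) overlapped a peak of the whole replicate 1 list and 3253 a peak of the whole replicate 2 list. Of the 59 genes, 19 were bound, or 32.2% (95% Wilson interval 21.7 to 44.9%), beside 24 of the 35 excluded unc genes (68.6%) and 2553 of all 19973 protein-coding genes (12.8%). Counts of bound genes differed between roles, whose lists were chosen with earlier results of these data known. Of the 14 genes for axon outgrowth and the cytoskeleton 9 were bound, and of the 7 for intracellular transport and trafficking 4 were. For ion channels and their partners the count was 2 of 9, for transcription factors and cofactors 2 of 10, for nuclear positioning and chromatin 1 of 3, and for synaptic transmission 0 of 13. Both of the higher counts depended on the settings. With 500 bp on each side, 4 of 14 axon genes and 1 of 7 transport genes were bound, and from 1000 bp upstream to 250 bp downstream it was 5 of 14 and 2 of 7. With the 1627 IDR peaks of highest score it was also 5 of 14 and 2 of 7. When a summit counted only for its nearest start, 9 of 14 axon genes and 2 of 7 transport genes were bound. The shares of all protein-coding genes in these settings, in the order given, were 7.42%, 9.30%, 6.23% and 8.83%. The difference between roles was not tested, and the interval for synaptic genes reached 22.8%, which takes in the 12.8% of all genes.

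**Figure D1:**
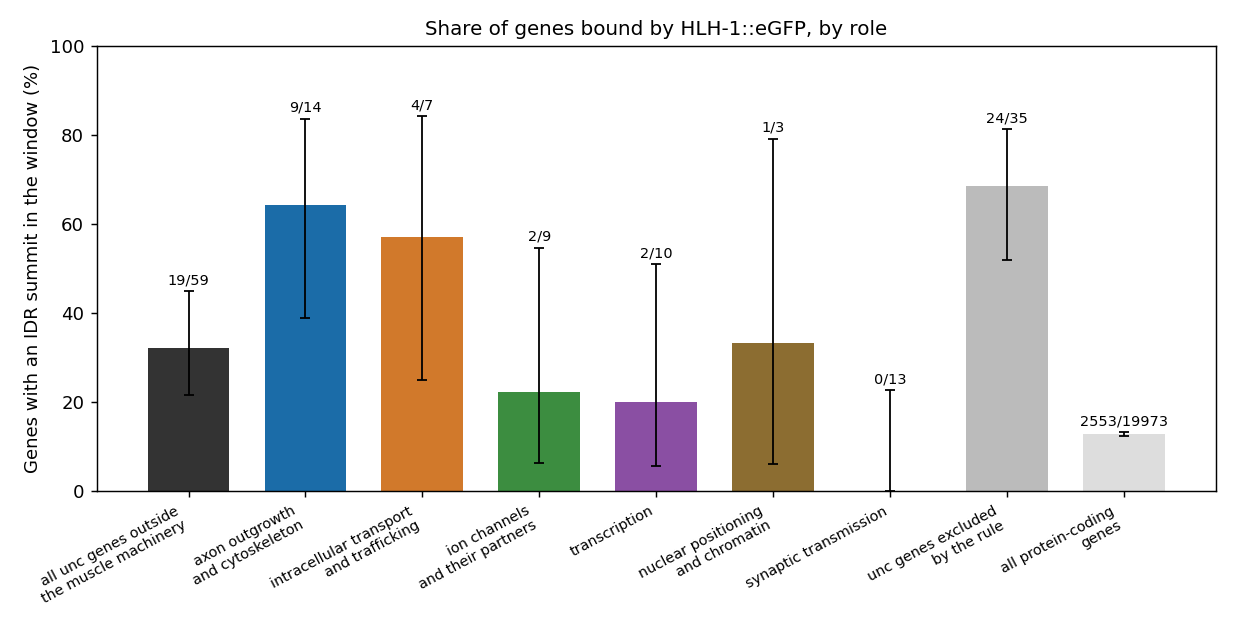
Bars give the share of genes (y axis, %) with an IDR summit in the window, for the 59 unc genes, for 6 roles among them, for the 35 excluded unc genes and for all protein-coding genes, with 95% Wilson intervals and the counts above. The bar for axon outgrowth and cytoskeleton stands at 64.3% (9 of 14), that for synaptic transmission at 0 of 13, and that for all protein-coding genes at 12.8%.

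The sequences below are shown so that the letters at summits upstream of these genes can be set beside those at summits inside them. They are taken from the WBcel235 (ce11) reference, the summit base with 50 bp on each side, read on the strand of the gene, with E-boxes of any kind in capitals and all else in lower case. The first 4 lie upstream of their genes and the last 4 in introns. They are examples and not a fair sample. Any of CAGCTG or CAACTG or CACCTG stood at 4 of the 19 summits in windows and at 10 of the 23 inside genes, and 9 of those 23 had no E-box. The upstream summits of unc-51 (chrV:20005879-20005979, minus strand) and unc-33 (chrIV:3515774-3515874, plus strand) hold no E-box. That of unc-76 (chrV:15071465-15071565, plus strand) holds a single one, and that of unc-105 (chrII:8115371-8115471, plus strand) has one far from the centre.
unc-51, upstream: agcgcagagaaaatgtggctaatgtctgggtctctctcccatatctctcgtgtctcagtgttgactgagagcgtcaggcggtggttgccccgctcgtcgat
unc-33, upstream: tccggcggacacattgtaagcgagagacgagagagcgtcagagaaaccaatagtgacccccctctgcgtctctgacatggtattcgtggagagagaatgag
unc-76, upstream: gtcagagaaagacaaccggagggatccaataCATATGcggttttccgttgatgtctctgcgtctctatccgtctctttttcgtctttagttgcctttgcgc
unc-105, upstream: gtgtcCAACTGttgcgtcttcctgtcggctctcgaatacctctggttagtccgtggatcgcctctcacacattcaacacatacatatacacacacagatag
The intronic summits shown are those of unc-44 (chrIV:5985431-5985531, plus strand), unc-83 (chrV:6478555-6478655, plus strand), unc-130 (chrII:11283137-11283237, plus strand) and unc-43 (chrIV:10346141-10346241, minus strand). There is CAGCTG at unc-44 and unc-83 and CAACTG, read here as its reverse complement, at unc-130, while the summit of unc-43 has no E-box. The unc-44 summit shown also lies in an exon of the annotated non-coding RNA B0350.76.
unc-44, inside the gene: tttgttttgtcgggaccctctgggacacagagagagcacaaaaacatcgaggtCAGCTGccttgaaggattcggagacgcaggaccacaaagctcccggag
unc-83, inside the gene: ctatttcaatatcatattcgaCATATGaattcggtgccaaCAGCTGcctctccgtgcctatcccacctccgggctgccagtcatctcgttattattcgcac
unc-130, inside the gene: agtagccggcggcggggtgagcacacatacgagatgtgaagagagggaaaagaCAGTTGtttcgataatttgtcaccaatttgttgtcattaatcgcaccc
unc-43, inside the gene: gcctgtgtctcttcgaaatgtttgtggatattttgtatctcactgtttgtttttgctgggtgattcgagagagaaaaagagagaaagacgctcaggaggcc

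Among the genes for axon outgrowth, unc-14 had the strongest peak of all 59 genes. Its summit lay 98 bp upstream of the start, with a score of 331 and rank 12 of the 3254 IDR peaks (the score is the authors', on a scale they do not state, and serves here only to rank peaks within a list). The same peak stood at rank 97 in the replicate 1 list (score 26.3) and at rank 10 in the replicate 2 list (score 304). It was thus near the top in both replicates, and it was the only window summit of the 59 genes with CAGCTG within 50 bp. A second, weak summit lay 1367 bp upstream of unc-14, with a score of 41.7 and ranks 27890 and 2102 in replicates 1 and 2, and with CAACTG beside it. UNC-14 is a RUN domain protein that binds the kinase UNC-51 in growing axons.

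The gene for that kinase, unc-51, a relative of the autophagy kinase ULK, had the next highest score among window summits of this role. Its summit lay 1444 bp upstream, with a score of 103, rank 509, and ranks 469 and 483 in replicates 1 and 2. The sequence around it, printed above, has no E-box, and the window of the gene Y60A3A.23 holds the same summit. The kinase and its binding partner thus had the highest scores among window summits of their role, both of them among the first 500 peaks of each replicate.

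Spectrin and ankyrin form the membrane skeleton that keeps axons intact. The summit of unc-70, which encodes beta-spectrin, lay 1681 bp upstream with a score of 65.3 and ranks 895 and 1661 in replicates 1 and 2. That of unc-44, which encodes ankyrin, lay 1405 bp upstream with a score of 56.3 and ranks 2167 and 1652. Both were among the top 3254 peaks by score of each replicate, which are called top peaks from here on. Both summits fell in exons of annotated non-coding RNAs, T19F4.6 at unc-70 and B0350.67 and B0350.84 at unc-44.

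The summit of unc-76, which encodes a FEZ family protein of axon bundling, lay 245 bp upstream with a score of 65.6 and ranks 3170 and 1183 in replicates 1 and 2. For unc-73, the exchange factor Trio, it lay 941 bp upstream with a score of 51.6 and ranks 383 and 2020. For unc-69, a short coiled-coil protein that binds UNC-76, the summit lay 17 bp upstream with a score of 52.4. These 3 genes had peaks in the middle of the list, and that of unc-69 overlapped no peak of replicate 1, while it ranked 1420 in replicate 2.

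The summit of unc-33, which encodes a CRMP protein that organises axonal microtubules, lay 1062 bp upstream with a score of 35.9 and ranks 5969 and 2942 in replicates 1 and 2. That of unc-115, an actin-binding abLIM protein, lay 225 bp upstream with a score of 33.4 and ranks 3264 and 3793. The peak of unc-115 was the weakest of the bound genes, just above the lowest score of the IDR list (32.49), and was a top peak in neither replicate. The unc-33 summit also lies in the window of tsg-101.

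**Figure D2:**
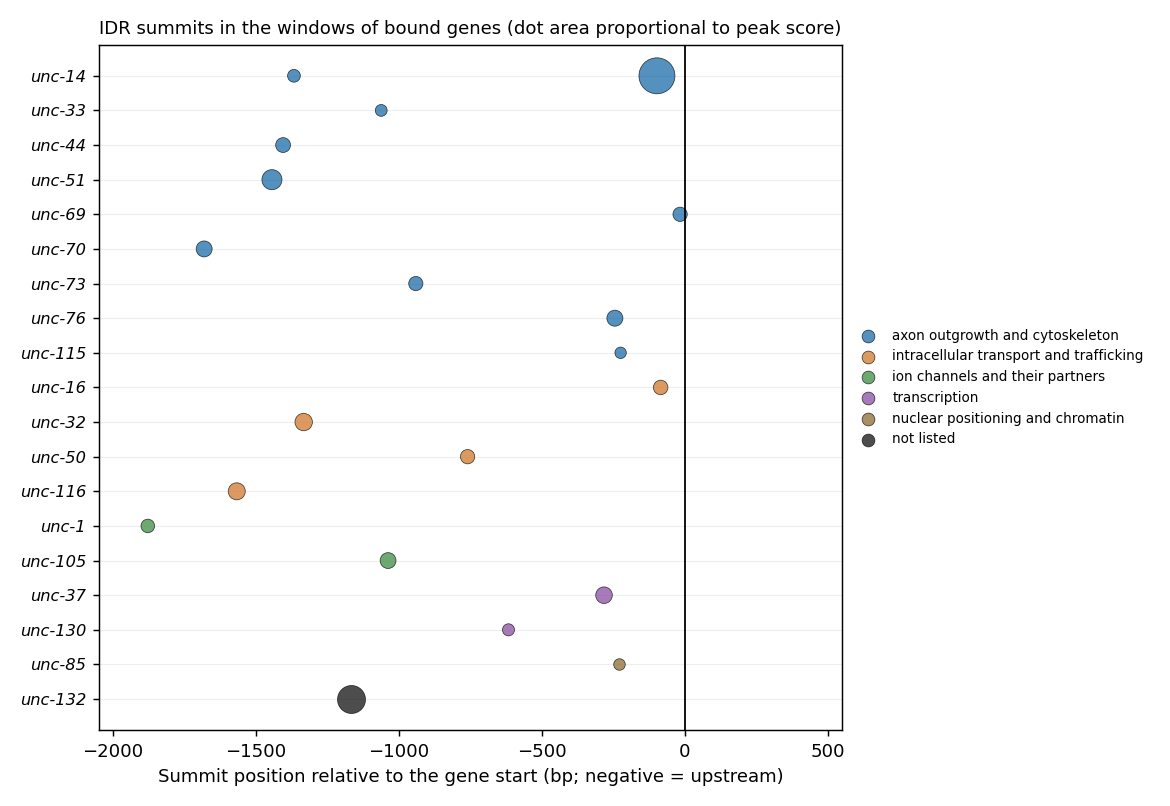
Each row is a bound gene, grouped by role, and each dot an IDR summit placed by its distance from the gene start (x axis, bp, negative upstream), with dot area proportional to the authors' score. All dots lie upstream, the largest at unc-14 (98 bp) and unc-132 (1166 bp).

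The strongest peak of unc-73 lay not in its window but inside the gene, and is described with the other summits there. Of the axon and cytoskeleton genes not bound, unc-71 (an ADAM protein) had a summit 2731 bp upstream, outside the window. The gene unc-53, a cytoskeletal regulator of the NAV family, had its summits inside the gene, and unc-34 (Enabled) had none nearer than 7301 bp. The septin genes unc-59 and unc-61 were 24768 and 37154 bp from the nearest IDR summit. In the window of unc-59 the pooled list, which holds weaker peaks and background too, had a peak of score 30.0 that ranked 3564, not far below the IDR threshold.

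Of the transport genes, unc-32, which encodes a subunit of the vacuolar proton pump, had the highest score. Its summit lay 1333 bp upstream with a score of 77.7 and ranks 390 and 1143 in replicates 1 and 2, but the start of lin-9 was nearer, at 151 bp. That of unc-116, the kinesin heavy chain, lay 1567 bp upstream with a score of 74.3 and ranks 904 and 1264, and also in the window of rfp-1. That of unc-16, a JIP family adaptor between kinesin and its cargo, lay 85 bp upstream with a score of 53.8 and ranks 2480 and 1934. The unc-16 summit also fell in an exon of an annotated non-coding RNA, ZK1098.13. The motor and its adaptor were thus both bound, each by a top peak of both replicates.

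The summit at unc-50, a Golgi protein needed to bring acetylcholine receptors to the surface, is the one already given for unc-69. It lies 760 bp upstream of unc-50 and 17 bp upstream of unc-69, which is on the other strand, and also in the window of ostf-4. The next protein-coding gene is 289 bp upstream of unc-50, so unc-50 and unc-69 are not adjacent. With this shared summit, the 19 bound genes had 19 distinct summits in 20 gene and summit pairs. Of these 19 summits, 6 lay in the window of more than 1 protein-coding gene when unc-50 and unc-69 are counted among them. For 16 of the 19 bound genes (84.2%) the gene's own start was the nearest protein-coding start to its strongest summit, beside 67.7% of all 2553 bound genes. The exceptions were unc-32, unc-50 and unc-132. Not bound were unc-101 (clathrin adaptor subunit), unc-104 (a kinesin for synaptic vesicle precursors) and unc-108 (a Rab GTPase), and the summit of unc-108 lay 1500 bp inside the gene.

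Of the channel genes, unc-1 and unc-105 were bound. The summit of unc-1, a stomatin-like partner of channels, lay 1878 bp upstream, nearest to the edge of the window, with a score of 47.3 and ranks 2361 and 2324 in replicates 1 and 2. That of unc-105, a degenerin cation channel, lay 1038 bp upstream in an intron of ire-1 with a score of 64.5. It ranked 871 in replicate 2 and overlapped no peak of replicate 1. The 7 other channel genes had no summit in the window. They were the calcium channel gene unc-2, the degenerin gene unc-8, the stomatin-like unc-24, the potassium channel gene unc-58, and unc-77, unc-79 and unc-80 of the sodium leak channel complex. At unc-24 the pooled list held a peak just below the IDR threshold, with a score of 30.8 and rank 3460. The strongest peaks of replicates 1 and 2 anywhere in that window ranked 3411 and 2828, so the latter was a top peak. Whether they overlap the pooled peak was not tested.

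Of the transcriptional regulators, unc-37, the Groucho corepressor, had a summit 283 bp upstream with a score of 70.5 and ranks 848 and 1032 in replicates 1 and 2. For unc-130, a forkhead factor, the window summit lay 617 bp upstream with a score of 37.3 and ranks 12509 and 2874. A stronger summit lay 1221 bp downstream of the unc-130 start, inside its intron, with a score of 99.1, rank 560, and ranks 821 and 585 in replicates 1 and 2. The factors known mostly for setting neuron types, unc-3, unc-4, unc-30, unc-42, unc-55 and unc-86, had no IDR summit in the window or inside the gene. Neither had unc-39. The Meis family gene unc-62 had none in the window and 4 inside.

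Of the remaining genes, unc-85, which encodes the histone chaperone ASF1, had a summit 232 bp upstream with a score of 34.2 and ranks 7073 and 2737 in replicates 1 and 2. The nuclear anchorage genes unc-83 (a KASH protein) and unc-84 (a SUN protein) were not bound. The calcium and calmodulin-dependent kinase gene unc-43 and unc-122, known from coelomocytes, were not bound either. The gene unc-132 was in none of the role lists, and RefSeq describes its product as an AAA domain-containing protein. Its summit lay 1166 bp upstream with a score of 200.3, rank 86, and ranks 31 and 104 in replicates 1 and 2. This was the second strongest window peak of the 59 genes, with CACCTG near the summit, but it lies in an intron of W08A12.3 and only 48 bp from the start of W08A12.2.

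The 13 genes of synaptic transmission had no IDR summit in the window. They encode the vesicle release proteins UNC-10 (RIM), UNC-13, UNC-18, UNC-31 (CAPS) and UNC-64 (syntaxin), and the endocytosis proteins UNC-11, UNC-26 (synaptojanin), UNC-41 (stonin) and UNC-57 (endophilin). The others are UNC-17, UNC-25, UNC-46 and UNC-47, which make acetylcholine or GABA transmission possible. Their median distance to the nearest IDR summit was 17953 bp, beside 17126 bp for all 40 genes not bound and 16690 bp for protein-coding genes not bound. Over all 59 genes, bound ones included, it was 5910 bp, beside 13491 bp for all protein-coding genes. For unc-18 the summit lay 2178 bp upstream (score 114) and for unc-57 2786 bp upstream (score 112), so both would be bound in a window of 3000 bp. The farthest of all 59 genes were unc-46 (49405 bp), unc-2 (46271 bp) and unc-77 (42775 bp).

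**Figure D3:**
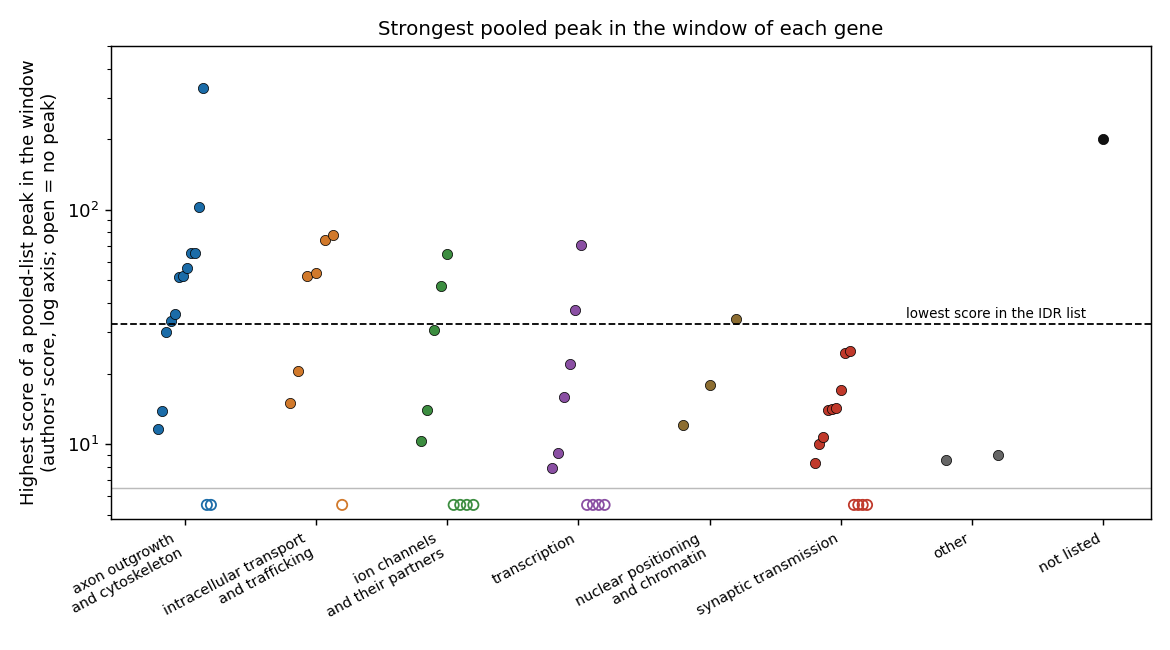
Each dot is 1 of the 59 genes, by role, placed by the highest score of a pooled-list peak in its window (y axis, authors' score, log axis), with open dots for the 15 genes without one. The 19 bound genes stand above the dashed line, the lowest score of the IDR list (32.49), and all 13 synaptic genes stand below it.

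Weaker peaks were common. In the whole pooled list, 44 of the 59 genes had a summit in the window (74.6%), beside 51.5% of all protein-coding genes. Of the 40 genes not bound, 25 had such a weaker summit (62.5%), beside 44.4% of the 17420 protein-coding genes not bound. Among the synaptic genes 9 of 13 did, the highest at unc-11 (score 24.9) and unc-64 (score 24.5), and at unc-62 the score was 22.0. The first genes outside the threshold were unc-24 (30.8) and unc-59 (30.0), and just inside it were unc-115 (33.4) and unc-85 (34.2), so the scores on either side of it lay close together.

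Taken alone, the top peaks of replicate 1 placed a summit in the window of 14 of the 59 genes (23.7%), beside 10.1% of all protein-coding genes. Those of replicate 2 did so for 19 of 59 (32.2%), beside 12.9%. Replicate 1 kept 12 of the 19 bound genes and added unc-13 (rank 2853) and unc-101 (rank 2201), which were named after their values were seen. Replicate 2 kept 18 of the 19 and added unc-24. Of the 19 window summits, 12 were top peaks of both replicates (63.2%), beside 48.2% of all IDR peaks. In replicate 2 all 19 had an overlapping peak, and in replicate 1 all but those of unc-105 and of unc-50 and unc-69 did.

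**Figure D4:**
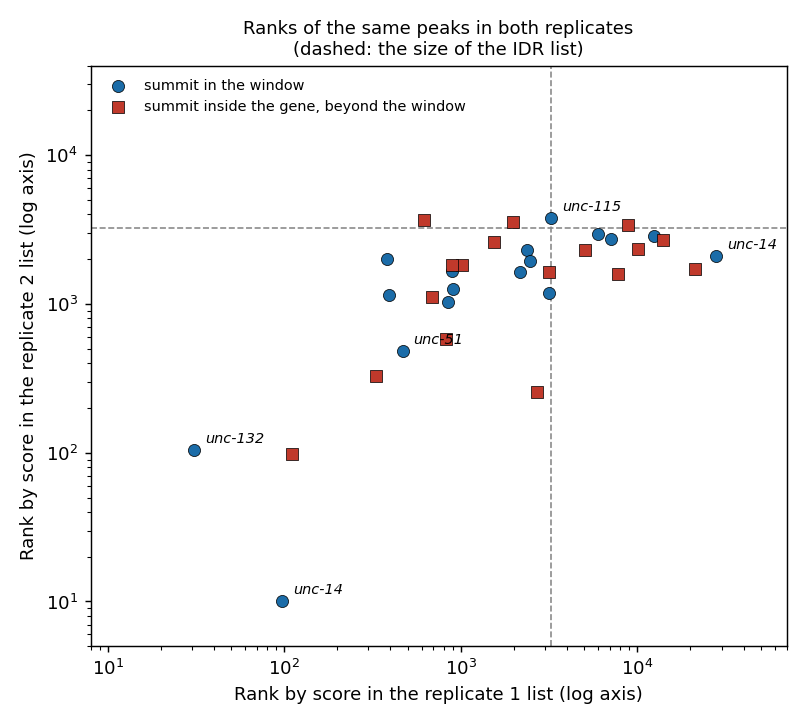
Each point is a peak of the 59 genes found in both replicates, placed by its rank in replicate 1 (x axis) and replicate 2 (y axis), both log axes with the strongest peak at rank 1. Window summits are circles (17 of 19) and summits inside genes squares (17 of 23), and points right of the vertical dashed line were not top peaks of replicate 1.

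Window summits of these genes were of middling strength. Their median score was 56.3 (lowest 33.38, highest 331.0), beside 55.7 for all IDR peaks. None lay downstream of the start, beside 6.78% of all bound genes. The strongest summit lay more than 500 bp upstream in 12 of the 19 genes (63.2%), beside 44.9% of all bound genes. The counts therefore fell with a narrower window, to 10 of 59 (16.9%, beside 9.30% of all genes) from 1000 bp upstream to 250 bp downstream and to 7 of 59 (11.9%, beside 7.42%) with 500 bp on each side. The 59 genes also had more room upstream, with 59.3% of them 2000 bp or more from the next gene, beside 31.6% of all genes. Within such genes 10 of 35 were bound (28.6%), beside 12.1% of all, and within those under 1000 bp from the next gene 6 of 14 were (42.9%), beside 13.1%.

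Inside the genes, beyond the window, 13 of the 59 genes had at least 1 IDR summit (22.0%), beside 3.34% of all protein-coding genes. The 59 genes were long, with a median of 6508 bp, beside 2027 bp over all protein-coding genes. The 59 genes held 23 such summits in 0.599 Mb (38.4 per Mb), beside 16.5 per Mb over all protein-coding genes. Among genes of 10000 bp or more, 8 of 21 had one (38.1%), beside 26.6% of all genes of that length. For genes under 5000 bp it was 2 of 21 (9.52%), beside 1.21%. With window and gene body together, 26 of 59 had a summit (44.1%), beside 15.1%.

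The strongest summit inside a gene was in unc-62, which encodes a cofactor of Hox proteins. It lay 10527 bp downstream of the start and had a score of 194.3, rank 100, and ranks 110 and 98 in replicates 1 and 2, with CAGCTG beside it. Another, 5427 bp downstream, had a score of 128.4, rank 295, and ranks 332 and 330, with CAACTG beside it. The 2 others of unc-62 overlapped no peak of replicate 1 and had scores of 62.7 and 37.5. The 2 strongest summits inside unc-62 thus had almost the same rank in both replicates.

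In unc-73 a summit 11047 bp downstream of the start had a score of 132.0 and ranks 2719 and 255 in replicates 1 and 2, and it lay 28 bp upstream of the start of a shorter transcript. Another lay 986 bp downstream with a score of 79.3. In unc-132 the 3 summits inside the gene had scores of 60.9, 60.5 and 57.3, and the second lay 13 bp upstream of a shorter transcript. In all, 6 of the 23 summits, in 5 genes, lay within 250 bp of the start of a transcript of the same gene. They were in unc-44 (2 summits), unc-62 (the summit of score 37.5), unc-73, unc-105 and unc-132. When the start of any transcript was allowed in place of the most 5′ one, unc-53, unc-62, unc-83 and unc-108 joined the bound genes, making 23 of 59 (39.0%), beside 13.7% of all genes.

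The other summits inside genes were weaker. That of unc-108 had a score of 52.1, those of unc-83 had 52.8 and 36.6, and those of unc-53 had 43.0 and 38.4. In unc-44 the scores were 40.8, 38.9 and 35.1, and unc-43 (43.8), unc-58 (40.7), unc-41 (37.5), unc-14 (35.3) and unc-105 (32.6) had 1 each. Of the synaptic genes, unc-41 alone had an IDR summit inside the gene.

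**Figure D5:**
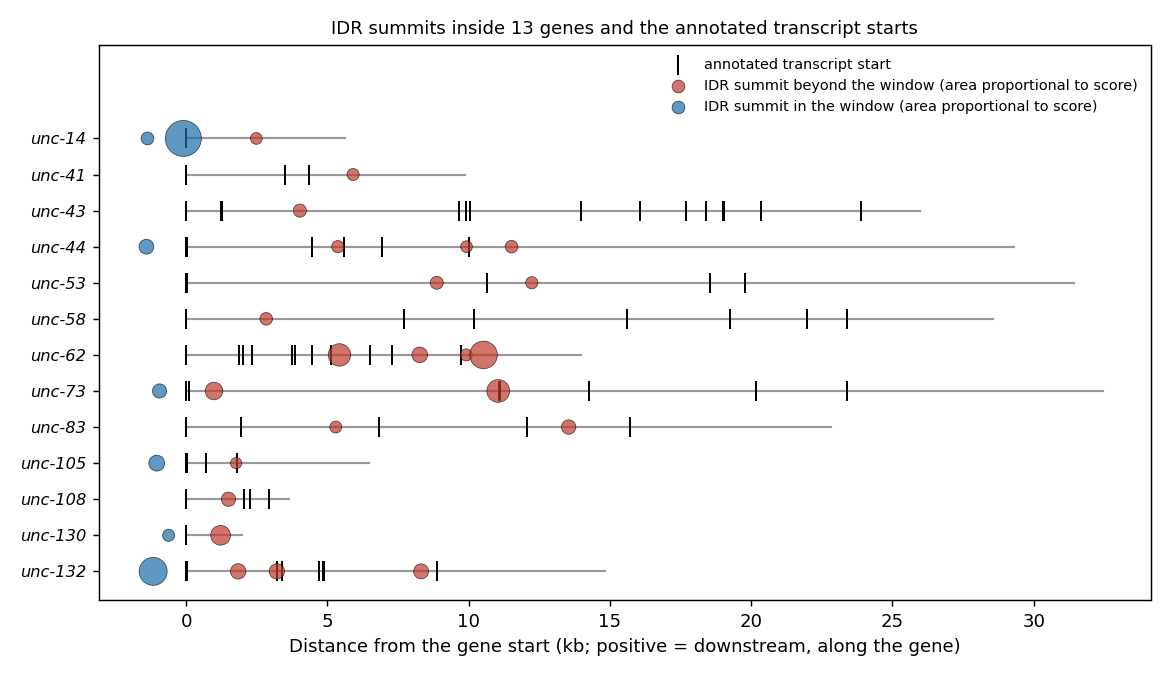
Each row is 1 of the 13 genes with an IDR summit inside the gene beyond the window, drawn from the start to the end of the gene (x axis, kb), with ticks at annotated transcript starts and dot area proportional to the authors' score. The largest red dots lie at 10527 bp in unc-62 and at 11047 bp in unc-73. The nearest transcript start is 784 bp from the dot in unc-62 and 28 bp from that in unc-73.

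E-boxes were sought within 50 bp of each summit, on both strands. Each was counted with its reverse complement, which for the first of the 3 kinds below is the same letters. CAGCTG was found at 1 of the 19 window summits (5.26%, 95% Wilson interval 0.935 to 24.6%), beside 15.2% of all IDR summits and 12.9% of those in the window of any protein-coding gene. Any of CAGCTG or CAACTG or CACCTG was found at 4 of 19 (21.1%, interval 8.51 to 43.3%), beside 38.8% and 32.9%. The 4 summits were the strongest of unc-14 and its weak one, and those of unc-105 and unc-132. Both intervals take in the shares over all summits. An E-box of any kind was found at 9 of 19 (47.4%), beside 63.4% of all IDR summits.

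At the summits inside genes, CAGCTG was found at 3 of the 23 (13.0%), in unc-62, unc-44 and unc-83, and any of the 3 kinds at 10 of 23 (43.5%), beside 38.8% of all IDR summits. The difference between summits inside genes and in windows was not tested. Over the whole window of 2501 bp, CAGCTG occurred in 6 of the 19 bound genes (31.6%), beside 48.6% of all 2553 bound protein-coding genes. It occurred in 14 of the 40 not bound (35.0%), and in 39.6% of all protein-coding genes, bound or not.

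Of the other short sequences at the summits, 5 were counted that earlier results of these data had ranked high over all IDR peaks, so their shares there are no finding. GACGCA occurred at 7 of the 19 window summits (36.8%), beside 14.7% of all IDR summits and 2.06% of windows 500 bp to their right. ACGCAG occurred at 6 (31.6%, beside 15.5%), and GAGAGA at 7 (36.8%, beside 29.7%). CGTCTC occurred at 5 (26.3%, beside 17.6%) and GCGCGC at 3 (15.8%, beside 5.75%). GACGCA and ACGCAG overlap, and with CGTCTC they can lie in a single run, as in the sequences of unc-33 and unc-76 printed above. At least 1 of the 5 occurred at 12 of 19 (63.2%), beside 49.4% of all IDR summits. At 4 of 19 neither an E-box nor any of these was found.

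The strongest peak of the IDR list lay 24 bp upstream of the start of hlh-1 itself (score 965). What the transgene wgIs64 adds to the signal at hlh-1 was not tested, so this peak is no check of the target. The gene unc-119, mutated in the strain and among the 35 excluded, had no summit in its window, and the nearest lay 2722 bp downstream of its start (score 122, rank 344).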

How the data were processed

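Peak lists on ce11 (the WBcel235 assembly) were used. Per the deposited manifest, the authors made a relaxed list for each replicate and for the pooled reads, and the IDR list from these. Each deposited peak carries the authors' score, of unstated scale, and a −log10 q-value by the authors, which was not used. The aligner, peak caller, IDR threshold and read depth were not given in the sources used here. No precision can therefore be put on a score. The control library was not analysed here. Wilson intervals cover the counting of genes or summits only. Genes came from Ensembl release 115 (6 nuclear chromosomes), sequence from the RefSeq assembly. Top peaks are the 3254 of highest score in each replicate list, and overlap means at least 1 bp. The members, role lists and sequences sought were chosen with earlier results of these data known, and 1 role symbol, unc-74, matched no gene. The genes named are each bound gene, genes not bound with an IDR summit within 5000 bp or inside, the 5 with the strongest weaker peak in the pooled list, the 3 farthest from a summit, hlh-1 and unc-119. The values of unc-34, unc-61, unc-13 and unc-101, outside this rule, were chosen after they were seen. No set test was made. Counting was tested on simulated data. Python 3.11.15, pandas 2.3.3, numpy 2.4.6, scipy 1.17.1 and matplotlib 3.10.9 were used. Other windows, starts, thresholds, sequence lengths and each replicate alone were tried.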

Additional observations from a re-analysis of the deposited data

How the results depend on the processing

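Of the 59 genes, 10 were bound from 1000 bp upstream to 250 bp downstream, 7 within 500 bp on each side, 10 with the 1627 IDR peaks of highest score and 12 with the 1567 IDR peaks shared with the top peaks of both replicates. Over all protein-coding genes 1481 were bound within 500 bp on each side (7.42%, beside 11.9% of the 59). The counts were 1244 with the 1627 highest peaks (6.23%, beside 16.9%) and 1205 with peaks of both replicates (6.03%, beside 20.3%). The cause was not tested, beyond fewer peaks or a narrower window. The share of the 59 stayed above that of all genes in each of these settings, by least within 500 bp on each side. No interval is given for these shares, and the difference was not tested, so they do not show a firm excess near the start. The count was 22 with 3000 bp upstream (37.3%, beside 15.3% of all protein-coding genes) and 16 with the nearest start only (27.1%, beside 8.83%). It was 23 with any transcript start (39.0%, beside 13.7%) and 26 with gene bodies (44.1%, beside 15.1%). With 1 replicate left out, 14 to 19 of the 59 and 2014 to 2574 of all genes were bound, CAGCTG stood at 10.5 to 12.5% of window summits and any of the 3 E-boxes at 25.0 to 26.3%. Within 25 bp of the summit in place of 50 bp, any of the 3 E-boxes stood at 5.26% of window summits, while within 100 bp it was 31.6% and CAGCTG 21.1%. Shares over all summits were not computed for these widths or for single replicates, so these E-box shares cannot be set beside other summits. No synaptic gene was bound in any of these settings but 3000 bp upstream (unc-18 and unc-57), gene bodies (unc-41) and replicate 1 alone (unc-13). No paired analysis was possible because the 2 replicates form 1 group. Read depth, which limits the weaker peaks, is unknown.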

Other observations

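The bound genes were found on all chromosomes. On chromosome I 3 of 11 genes were bound, on II 3 of 6, on III 5 of 11, on IV 2 of 10, on V 4 of 13 and on X 2 of 8. Over all chromosomes the share was 32.2%, beside 12.8% of all protein-coding genes. A summit of the whole pooled list lay in the window of 11 of 11 genes on chromosome I, 3 of 6 on II, 8 of 11 on III, 6 of 10 on IV, 10 of 13 on V and 6 of 8 on X, which together make 74.6%, beside 51.5% of all protein-coding genes. Shares of all genes by chromosome were not computed. An IDR summit inside the gene beyond the window was found in 13 of the 59 genes described here and in 14 of the 35 excluded unc genes, beside 3.34% of all protein-coding genes. Among all protein-coding genes this share was 1.21% for those under 5000 bp and 26.6% for those of 10000 bp or more. The 59 and the 35 genes were not compared at equal length, and the difference between them was not tested.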
